A study of Mus musculus with 36 samples.

Results

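The liver X receptors and their target genes were followed as a set of 10 genes, picked by symbol from the 24421 genes listed for each library. They are the receptors Nr1h3 (LXR alpha) and Nr1h2 (LXR beta), the cholesterol exporters Abca1 and Abcg1, the apolipoprotein gene Apoe, and Mylip, Srebf1, Scd2, Lpcat3 and Arl4c. All 10 had counts in every population. All 10 also passed the filter on low counts in each comparison, except that Nr1h3 was too low to be tested within peritoneal macrophages, which leaves 9 there.

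Liver X receptors are nuclear receptors that bind oxysterols and sit on DNA as dimers with retinoid X receptors. Without ligand they hold corepressors, and with ligand they switch on genes that move cholesterol out of the cell and that make fatty acids. In macrophages, which take up modified lipoproteins and turn into foam cells in atherosclerotic plaques, this pathway is a main route of cholesterol removal.

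RNA was sequenced from aortic macrophages, freed by collagenase digestion, from peritoneal macrophages, washed out by lavage, and from monocytes of blood and spleen. Every group, the chow-fed baseline included, came from mice with the Apoe ko genotype, so no group has intact Apoe. Baseline mice ate chow, early-stage mice had 1 month of high cholesterol diet and advanced-stage mice had 6 months of it. Each population had 4 libraries at each stage, which makes 12 libraries per population and 36 in all. Age and strain are not stated in the labels, nor which part of Apoe is deleted, nor if each of the 4 libraries in a group stands for its own mouse. The p-values therefore measure the spread between these samples, which may be technical. In RNA from sorted pools, fewer expressing cells and less RNA per cell cannot be told apart.

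Libraries held 5.28 to 14.8 M counts at baseline and 0.943 to 2.63 M after the diet, so that baseline and depth cannot be told apart in any comparison with baseline. The biological coefficient of variation, the spread between replicates beyond counting error, was 110% in aortic macrophages, 21.2% in peritoneal macrophages and 19.1% in monocytes. Summed macrophage markers (9 of 9 with counts) came to 9145 to 13580 counts-per-million (CPM) in aortic macrophages, 5248 to 8413 CPM in peritoneal macrophages and 1762 to 2805 CPM in monocytes. Markers of large peritoneal macrophages reached 5491 to 21570 CPM in peritoneal libraries, and at most 587 CPM in aortic libraries and 78.48 CPM in monocyte libraries. Neutrophil markers (7 of 7 with counts) summed to 238.7 to 719.1 CPM in baseline monocyte libraries, 3783 to 14190 CPM at the early stage and 5044 to 40080 CPM at the advanced stage. Fibroblast markers in aortic libraries summed to 8.895 to 287.2 CPM at baseline, 510.1 to 1058 CPM at the early stage and 140.2 to 379.2 CPM at the advanced stage. An earlier reading of these data set 6 libraries apart from their groups: aortic baseline 3 and 4, aortic advanced 1, monocyte advanced 3 and peritoneal early 1 and 2. They were picked from these same data, so fits without them are no independent check.

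Receptor dimers bind a DR4 element, a direct repeat of AGGTCA with 4 free bases between the copies. Windows of 300 bases, 250 before and 50 after each annotated start, were searched on both strands for the best match to its 12 fixed letters, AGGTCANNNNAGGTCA. RefSeq promoters (GRCm38.p6) were matched by symbol for 8 of the 10 genes, with 13 start sites. The 250 bases before the start are shown for 2 of them, because Abca1 and Srebf1 are classical receptor targets and both hold a 9-letter match, written in capitals within the strand of the gene.
Abca1, chr4:53159896-53160145, minus strand: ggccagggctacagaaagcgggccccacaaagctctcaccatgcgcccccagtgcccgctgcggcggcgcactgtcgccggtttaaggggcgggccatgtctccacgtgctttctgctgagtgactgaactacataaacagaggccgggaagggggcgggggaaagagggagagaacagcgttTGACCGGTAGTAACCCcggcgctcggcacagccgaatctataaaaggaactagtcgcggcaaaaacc
Srebf1, chr11:60210472-60210721, minus strand: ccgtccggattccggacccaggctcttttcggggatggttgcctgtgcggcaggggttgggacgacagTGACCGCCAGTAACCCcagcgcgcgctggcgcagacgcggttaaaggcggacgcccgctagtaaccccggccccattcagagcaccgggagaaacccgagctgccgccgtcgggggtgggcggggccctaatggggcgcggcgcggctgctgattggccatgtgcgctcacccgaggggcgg

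Read on the strand opposite to each gene, the matches are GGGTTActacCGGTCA for Abca1, 67 to 52 bases before the start, and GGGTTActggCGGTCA for Srebf1, 182 to 167 bases before the third annotated start. The capitals mark the repeat positions and the lower case the free bases. The 2 matches share 14 of 16 bases. Of the 13 windows, 3 held a match of 9 letters (the third is that of Arl4c), 9 of 8 letters and 1, that of Mylip, of 7 letters. The best matches of Mylip and of 1 Apoe start lay after the start. A match of 9 or more letters was present in 21.9% of the 32851 windows of the same length in the table, so it describes these sequences and names no binding site.

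Across the populations, Abca1 separated aortic macrophages from every other library (6.21% of all genes lay apart against monocytes and 4.36% against peritoneal macrophages). Abcg1 and Arl4c separated monocytes from peritoneal macrophages, 2 of 10 genes, near the 18% of all genes that lay apart there. Across the stages, Abca1 rose about 2.08-fold in monocytes at the early stage and stayed called at the advanced stage, where Nr1h3 and Scd2 also rose and Nr1h2 fell. In aortic macrophages Abca1 and Abcg1 were higher at the advanced stage in every library than in any baseline library, where 9.24% of all genes lay apart. Neither passed the test over all genes. No gene of the 10 passed a stage test in peritoneal macrophages. Levels below are CPM, and fold changes are log2 values ± standard error from edgeR's quasi-likelihood test, with p adjusted over all genes tested by Benjamini-Hochberg and called under 0.05.

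**Figure D1:**
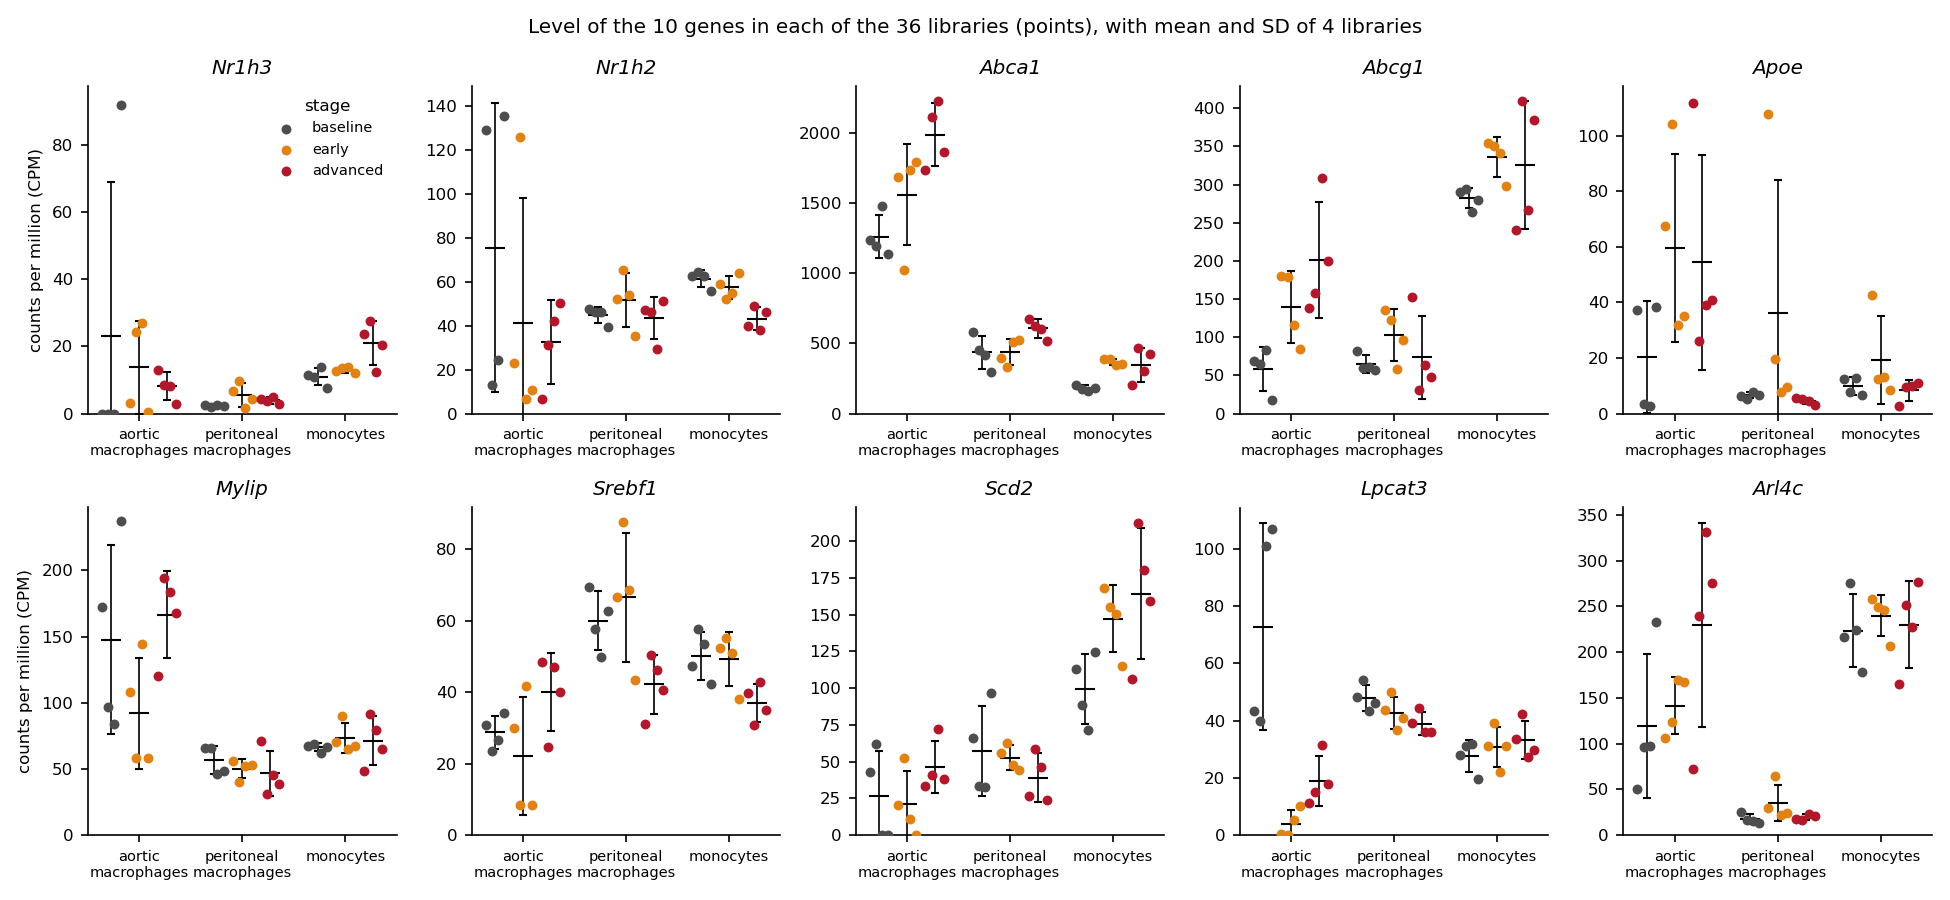
Counts-per-million (CPM, linear axes that differ between panels) of the 10 genes in each of the 36 libraries, grouped by population and coloured by stage. Bars give the mean and SD of 4 libraries. Abca1 in aortic macrophages (1022 to 2228 CPM) lies above all other libraries, and Nr1h3 in aortic macrophages at baseline rests on 1 library at 91.95 CPM.

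Nr1h2 (chromosome 7, 44549616 to 44553968, GRCm38) encodes LXR beta, the form found in most tissues. It had 39.71, 48.79, 37.97 and 46.48 CPM in advanced-stage monocytes, against 62.45, 64.69, 62.82 and 55.87 CPM in baseline monocytes, and the groups did not overlap. How many of all genes lay apart between monocyte stages was not counted. Nr1h2 fell by 0.47 ± 0.11 on the log2 scale (adjusted p = 0.0102). Against early monocytes, with 58.94, 51.96, 54.78 and 64.19 CPM, the advanced-stage change was -0.40 ± 0.12 and did not pass (adjusted p = 0.088). The call over baseline was lost with counts thinned to the depth of the shallowest library (adjusted p = 0.0773). In aortic macrophages Nr1h2 ran from 6.467 to 135.7 CPM, and from 6.467 to 125.8 CPM within the early stage alone. In peritoneal macrophages it ran from 29.41 to 65.28 CPM.

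Nr1h3 (chromosome 2, 91184061 to 91202829) encodes LXR alpha, the form that is itself a receptor target in human macrophages. It had 23.82, 27.57, 12.46 and 20.34 CPM in advanced-stage monocytes, against 11.54, 10.98, 14.01 and 7.578 CPM in baseline monocytes. Advanced library 3, with the largest neutrophil marker sum of 40080 CPM, was the one inside the baseline range. Nr1h3 rose by 0.95 ± 0.24 (adjusted p = 0.0123), and by 1.13 ± 0.23 without that library (adjusted p = 0.00627). In aortic macrophages it was listed at 0 in 3 baseline libraries and at 91.95 CPM in the fourth, and ran from 0.5009 to 27.01 CPM in the early libraries and from 2.836 to 13.04 CPM in the advanced ones. Peritoneal macrophages had 1.524 to 9.772 CPM, the lowest median of the 3 populations at 3.157 CPM, against 13.15 CPM in monocytes. Peritoneal macrophages were lower than monocytes by a log2 difference of -1.74 ± 0.18 (adjusted p = 7.92e-09).

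Abca1 (chromosome 4, 53030789 to 53159988) encodes the transporter that loads cholesterol onto lipid-poor apolipoprotein A-I. Aortic macrophages had 1238, 1192, 1477 and 1133 CPM at baseline, 1683, 1022, 1735 and 1792 CPM at the early stage and 1736, 2109, 2228 and 1864 CPM at the advanced stage. Peritoneal macrophages had 579.5, 452.2, 414.6 and 292.7 CPM at baseline, 391.9, 331.5, 509.6 and 520.2 CPM at the early stage and 675.8, 625.9, 604.5 and 517.3 CPM at the advanced stage. Monocytes had 205.6, 174.3, 157.3 and 182.7 CPM at baseline, 386.4, 389.2, 347.6 and 353.3 CPM at the early stage and 199.9, 466.6, 299.6 and 421.3 CPM at the advanced stage. All 12 aortic libraries were above all 24 others, while peritoneal and monocyte libraries overlapped. Averaged over stages, Abca1 was higher in aortic macrophages than in monocytes by 2.49 ± 0.13 (adjusted p = 2.13e-14), higher in aortic than in peritoneal macrophages by 1.62 ± 0.13 (adjusted p = 1.46e-10), and higher in peritoneal macrophages than in monocytes by 0.98 ± 0.12 (adjusted p = 9.64e-08). An exact two-sided permutation test of log2(CPM + 1) within stages gave an unadjusted p = 5.83e-06, the smallest it can give, for both aortic differences. For the third difference that permutation test gave p = 7.58e-05.

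In monocytes every early library was above every baseline library for Abca1 (share over all genes not counted). It rose by 1.06 ± 0.18 at the early stage (adjusted p = 0.00222) and by 0.97 ± 0.18 at the advanced stage (adjusted p = 0.0023), both over baseline. Advanced library 1, at 199.9 CPM, lay inside the baseline range. Both calls were kept in all 9 alternative analyses and in all 8 fits that left out 1 library. With every library thinned to the shallowest depth the changes were 1.04 ± 0.19 (adjusted p = 0.00326) and 0.96 ± 0.19 (adjusted p = 0.00319). The neutrophil marker sum moved with the same stages, and its part in the result was not tested. In the order of the libraries it was 14190, 10690, 3783 and 8776 CPM at the early stage and 7108, 14560, 40080 and 5044 CPM at the advanced stage.

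In aortic macrophages the advanced libraries lay above all baseline libraries for Abca1, where 9.24% of all genes lay apart. The change of 0.77 ± 0.22 did not pass (adjusted p = 0.121). Foam cell markers (6 of 6 with counts) summed to 1055 to 6083 CPM in advanced aortic libraries, against 155.8 to 317.5 CPM in baseline ones, where Gpnmb was at 0. Markers of LYVE1 arterial macrophages (5 of 5 with counts) summed to 4412 to 5913 CPM in advanced libraries, against 5751 to 8969 CPM at baseline. These sums moved with the advanced aortic values of Abca1, Abcg1 and Cd38, and their part was not tested. Peritoneal Abca1 at the advanced stage overlapped with baseline through baseline library 1, with a change of 0.56 ± 0.20 (adjusted p = 0.176). Without the libraries that stood apart, which are early libraries there, that change was 0.56 ± 0.14 with adjusted p = 0.0257.

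**Figure D2:**
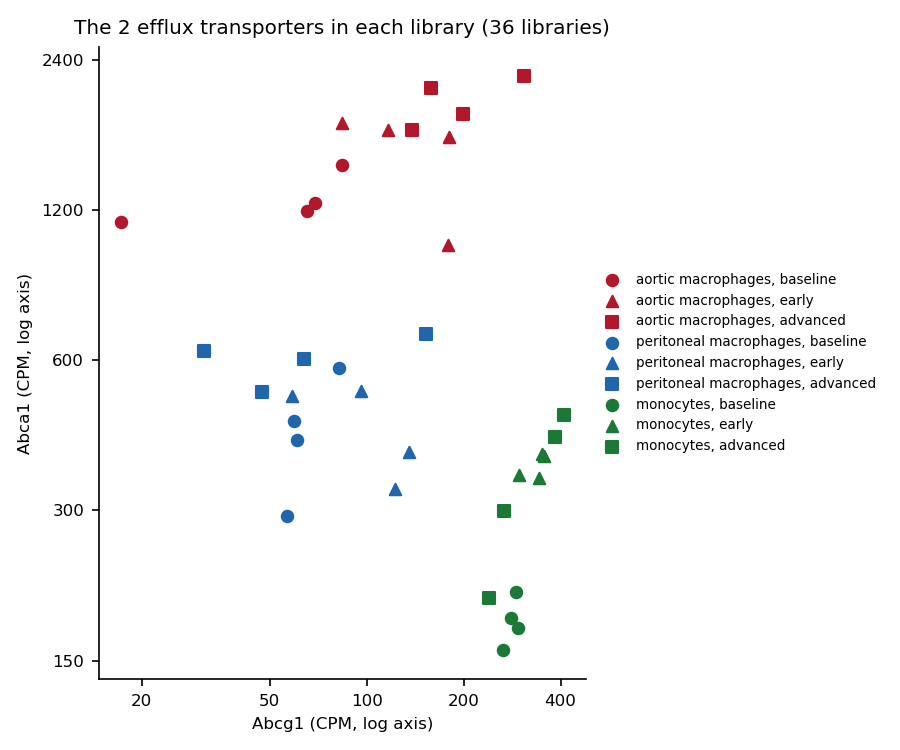
Abca1 against Abcg1 in each of the 36 libraries, both in counts-per-million on log axes, with colour for population and shape for stage. Monocyte libraries (157.3 to 466.6 CPM of Abca1) overlap in Abca1 with peritoneal ones (292.7 to 675.8 CPM) and lie to their right in Abcg1 (240.2 to 409.4 CPM, against 31.21 to 152.4 CPM in peritoneal libraries), and aortic libraries lie highest in Abca1 (1022 to 2228 CPM).

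Abcg1 (chromosome 17, 31057694 to 31117984) encodes the transporter that passes cholesterol to mature high-density lipoprotein. Aortic macrophages had 69.38, 65.14, 83.73 and 17.25 CPM at baseline, 180.4, 178.4, 116.4 and 84.15 CPM at the early stage and 138.8, 158.2, 308.4 and 199.7 CPM at the advanced stage. Peritoneal macrophages had 82.3, 59.55, 60.92 and 56.66 CPM at baseline, 135.5, 122.7, 58.66 and 95.88 CPM at the early stage and 152.4, 31.21, 63.72 and 47.48 CPM at the advanced stage. Monocytes had 290.4, 294.9, 264.6 and 280.3 CPM at baseline, 354.2, 350, 341.9 and 297.9 CPM at the early stage and 240.2, 409.4, 267 and 385 CPM at the advanced stage. In the aorta every early library was above every baseline library (5.77% of all genes lay apart), as was every advanced library (9.24%), but the spread was wide. The change was 1.38 ± 0.47 at the early stage (adjusted p = 0.214) and 1.92 ± 0.48 at the advanced stage (adjusted p = 0.0776), both over baseline. Without the aortic libraries that stood apart the advanced change was 1.93 ± 0.42 and passed (adjusted p = 0.0258), in a fit that rests on 2 baseline libraries. The early monocyte libraries also lay above all baseline ones (share over all genes not counted), with a change of 0.27 ± 0.13 (adjusted p = 0.205).

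The order of the populations differed between the transporters. Averaged over stages, Abcg1 was lower in aortic macrophages than in monocytes by a log2 difference of -1.40 ± 0.19 (adjusted p = 1.68e-06) and lower in peritoneal macrophages than in monocytes by -1.79 ± 0.17 (adjusted p = 1.15e-09). Aortic and peritoneal macrophages did not differ beyond their spread (0.49 ± 0.25, adjusted p = 0.158). Per kilobase of exon, the level of Abca1 was 4.03 to 46.2 times that of Abcg1 in aortic libraries, 1.90 to 14.1 times in peritoneal libraries and 0.416 to 0.835 times in monocyte libraries. Within monocytes this ratio was 0.416 to 0.499 at baseline, 0.716 to 0.835 at the early stage and 0.586 to 0.803 at the advanced stage. Neither diet stage overlapped with baseline, and no background was counted for the ratio. Depth and neutrophil markers moved with the same stages, and their part was not tested.

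Apoe (chromosome 7, 19696244 to 19701310) encodes apolipoprotein E, the ligand by which lipoprotein receptors take up remnant particles, and is the gene disrupted in all mice. Whole-gene counts do not check the genotype, since reads from parts of the gene that remain are counted too. Aortic macrophages had 37.15, 3.359, 2.652 and 38.37 CPM at baseline, 67.59, 104.4, 31.95 and 35.06 CPM at the early stage and 111.8, 26.13, 39.12 and 40.92 CPM at the advanced stage. Peritoneal macrophages had 6.344, 5.404, 7.835 and 6.707 CPM at baseline, 107.8, 19.54, 7.618 and 9.535 CPM at the early stage and 5.464, 5.401, 4.357 and 3.165 CPM at the advanced stage. Monocytes had 12.54, 7.578, 12.86 and 6.801 CPM at baseline, 42.82, 12.28, 13.22 and 8.411 CPM at the early stage and 2.647, 9.545, 10.09 and 10.89 CPM at the advanced stage. Reads were present in all 36 libraries, and the spread within a group was widest in early peritoneal macrophages, where 1 library reached 107.8 CPM. Apoe was higher in aortic macrophages than in monocytes by 1.80 ± 0.47 (adjusted p = 0.0037) and than in peritoneal macrophages by 1.92 ± 0.49 (adjusted p = 0.00364), but limma-voom with a weight for each population called neither (adjusted p = 0.05003 and 0.0586).

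The peritoneal change of Apoe at the early stage, 2.47 ± 0.60 over baseline, missed the threshold at adjusted p = 0.0501. Early libraries 1 and 2, the highest for Apoe, also had the highest summed monocyte markers, 1140 and 1663 CPM, against 204.9 and 135.1 CPM in early libraries 3 and 4 and 87.2 to 106 CPM at baseline. The part of those cells in the Apoe values was not tested.

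Mylip (chromosome 13, 45389742 to 45411940) encodes a ubiquitin ligase, also called IDOL, that limits the uptake of lipoprotein cholesterol. It had 57.94 to 237.2 CPM (median 132.2) in aortic macrophages, 31.21 to 71.03 CPM (median 50.25) in peritoneal macrophages and 48.31 to 91.21 CPM (median 67.44) in monocytes. The aortic range reached down into both others. Mylip was higher in aortic macrophages than in monocytes by 0.93 ± 0.20 (adjusted p = 0.000828) and than in peritoneal macrophages by 1.30 ± 0.22 (adjusted p = 4.49e-05). Peritoneal macrophages and monocytes differed by -0.25 ± 0.12, which did not pass (adjusted p = 0.0588).

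Srebf1 (chromosome 11, 60199084 to 60224186) encodes SREBP-1, which drives fatty acid synthesis. It had 8.386 to 48.45 CPM (median 30.33) in aortic macrophages, 31.14 to 87.56 CPM (median 54.01) in peritoneal macrophages and 30.76 to 57.66 CPM (median 44.99) in monocytes. All 3 ranges overlapped. It was lower in aortic than in peritoneal macrophages by a log2 difference of -0.98 ± 0.28 (adjusted p = 0.00853) and higher in peritoneal macrophages than in monocytes by 0.49 ± 0.10 (adjusted p = 0.000174). The first of these was not called by limma-voom (adjusted p = 0.0692).

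Scd2 (chromosome 19, 44293676 to 44306864) encodes a stearoyl-CoA desaturase, which makes monounsaturated fatty acids. Monocytes had 112.8, 88.3, 71.49 and 124.3 CPM at baseline, 168.3, 155.4, 150.5 and 115.1 CPM at the early stage and 105.9, 212.1, 180.4 and 159.1 CPM at the advanced stage. The diet stages overlapped with baseline through 1 library each. At the advanced stage Scd2 rose by 0.75 ± 0.21 over baseline (adjusted p = 0.0202), and at the early stage the change was 0.58 ± 0.20 (adjusted p = 0.0781). The advanced call was lost without baseline library 2, advanced library 2 or advanced library 3, with adjusted p up to 0.065. Aortic macrophages held between 0 and 72.41 CPM and peritoneal macrophages between 23.51 and 96.84 CPM. Scd2 was lower in aortic macrophages than in monocytes by -2.21 ± 0.58 (adjusted p = 0.00388) and in peritoneal macrophages than in monocytes by -1.25 ± 0.18 (adjusted p = 1.74e-06).

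Lpcat3 (chromosome 6, 124663094 to 124704716) encodes the enzyme that puts polyunsaturated chains into membrane phospholipids. Aortic macrophages had 43.41, 39.71, 101 and 107.2 CPM at baseline, 0.5082, 0, 5.326 and 10.02 CPM at the early stage and 11.18, 14.93, 31.63 and 17.83 CPM at the advanced stage. Both diet stages lay below every baseline library (5.77% of all genes lay apart at the early stage, 9.24% at the advanced stage). The early stage, with 1, 0, 14 and 20 counts, lay below the advanced stage too (8.65%). Even so the aortic test did not call it, with an early change of -4.04 ± 1.24 over baseline (adjusted p = 0.16) and an advanced change of -1.86 ± 1.13 over baseline (adjusted p = 0.761). Peritoneal macrophages (35.94 to 54.26 CPM) and monocytes (19.43 to 42.42 CPM) varied less between libraries. The fibroblast marker sum was highest at the same early aortic stage, and its part was not tested. Averaged over stages, Lpcat3 was lower in aortic than in peritoneal macrophages by -1.31 ± 0.39 (adjusted p = 0.0128) and higher in peritoneal macrophages than in monocytes by 0.71 ± 0.09 (adjusted p = 1.5e-07).

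Arl4c (chromosome 1, 88698225 to 88702191) encodes a small GTPase of the ARF family. Aortic macrophages had 50.29, 96.57, 97.18 and 232.8 CPM at baseline, 106.2, 123.5, 168.9 and 167.3 CPM at the early stage and 71.74, 238.9, 331.7 and 275.9 CPM at the advanced stage. Peritoneal macrophages had 12.72 to 64.11 CPM (median 21.45) and monocytes 164.8 to 276 CPM (median 236.4). Every monocyte library was above every peritoneal one (18% of all genes lay apart), and the aortic range spanned from the one to the other. Arl4c was lower in peritoneal macrophages than in monocytes by a log2 difference of -3.13 ± 0.14 (adjusted p = 9.41e-16), higher in aortic than in peritoneal macrophages by 2.74 ± 0.28 (adjusted p = 1.37e-08), and not called between aortic macrophages and monocytes (-0.52 ± 0.22, adjusted p = 0.0806). The aortic stages overlapped, with an advanced change of 1.02 ± 0.50 over baseline (adjusted p = 0.592). Without the aortic libraries that stood apart, baseline 3 and 4 and advanced 1, that change was 2.15 ± 0.39 (adjusted p = 0.00813). That fit leaves out the highest baseline value (232.8 CPM) and the lowest advanced value (71.74 CPM). It rests on 2 baseline libraries, at 50.29 and 96.57 CPM.

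**Figure D3:**
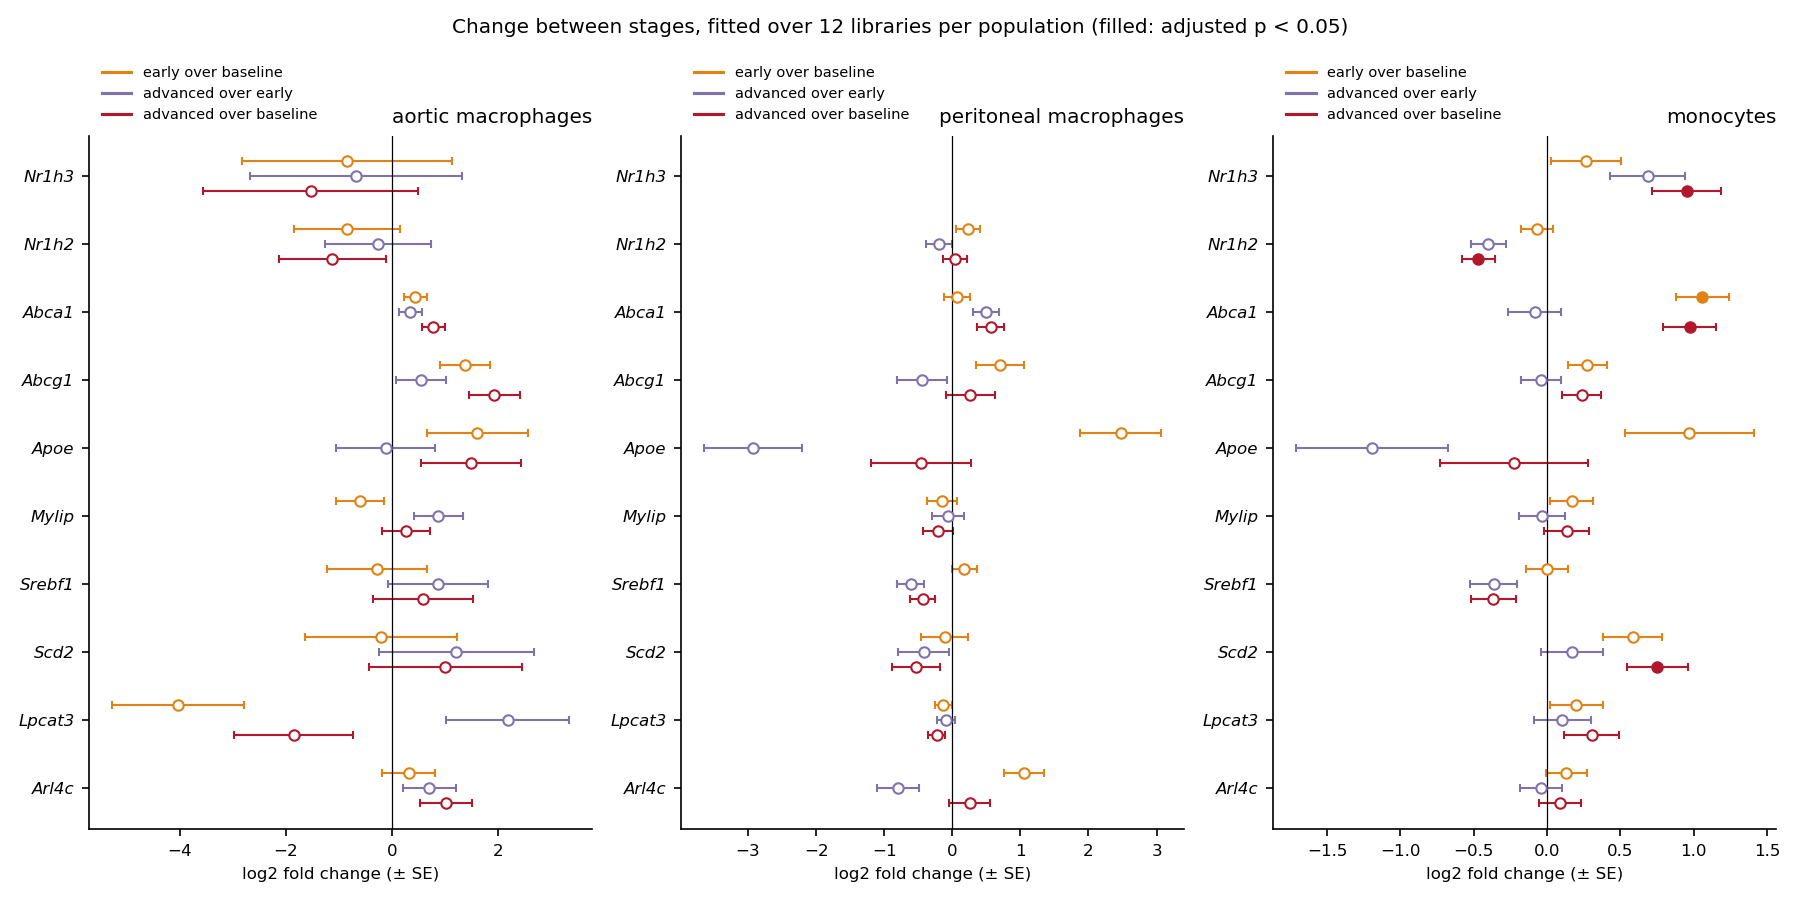
Log2 fold changes between stages (± standard error) of the 10 genes in aortic macrophages, peritoneal macrophages and monocytes, each fitted over 12 libraries, with x axes that differ between panels. Filled points have an adjusted p under 0.05, and all 5 of them are in monocytes, from 0.75 to 1.06 for the higher ones and at -0.47 for Nr1h2. Nr1h3 was not tested in peritoneal macrophages.

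Counted by stage comparison, 0 of the 10 genes passed in aortic macrophages for early over baseline (0.373% of all tested genes passed), advanced over early (0.0403%) and advanced over baseline (0.585%). At an unadjusted p under 0.05 edgeR had 2, 0 and 2 of them, DESeq2 called 1, 0 and 1, and limma-voom 0, 0 and 2, in the same order. Groups without overlap were found for Abcg1, above, and Lpcat3, below, for early over baseline, where 5.77% of all genes did not overlap. Lpcat3 lay above for advanced over early (8.65% of all genes), and Abca1 and Abcg1 lay above and Lpcat3 below for advanced over baseline (9.24% of all genes). For stages of monocytes and peritoneal macrophages this share of all genes was not counted, so groups apart there have no background. In peritoneal macrophages they were Nr1h3, above, for advanced over baseline, and Apoe, below, for advanced over early. In monocytes 1 of 10 passed for early over baseline (10.8% of all genes), 0 of 10 for advanced over early (2.05%), and 4 of 10 for advanced over baseline (19%), of which 3 were higher and 1 lower. The 1 of 10 is at the background share, and the monocyte count of 0 stood beside 4 genes at an unadjusted p under 0.05 in edgeR and 0 called by DESeq2 or limma-voom. In peritoneal macrophages 0 of 9 passed for early over baseline (1.79% of all genes), advanced over early (1.33%) and advanced over baseline (0.898%). Here edgeR had 2, 4 and 2 genes at an unadjusted p under 0.05, DESeq2 called 3, 1 and 0, and limma-voom 0, 0 and 1. A fit of all 36 libraries with 1 common spread kept, of the 4 calls in advanced over baseline monocytes, Abca1 alone. The median change of the 10 genes in monocytes at the advanced stage over baseline was 0.184, against -0.015 over all genes.

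**Figure D4:**
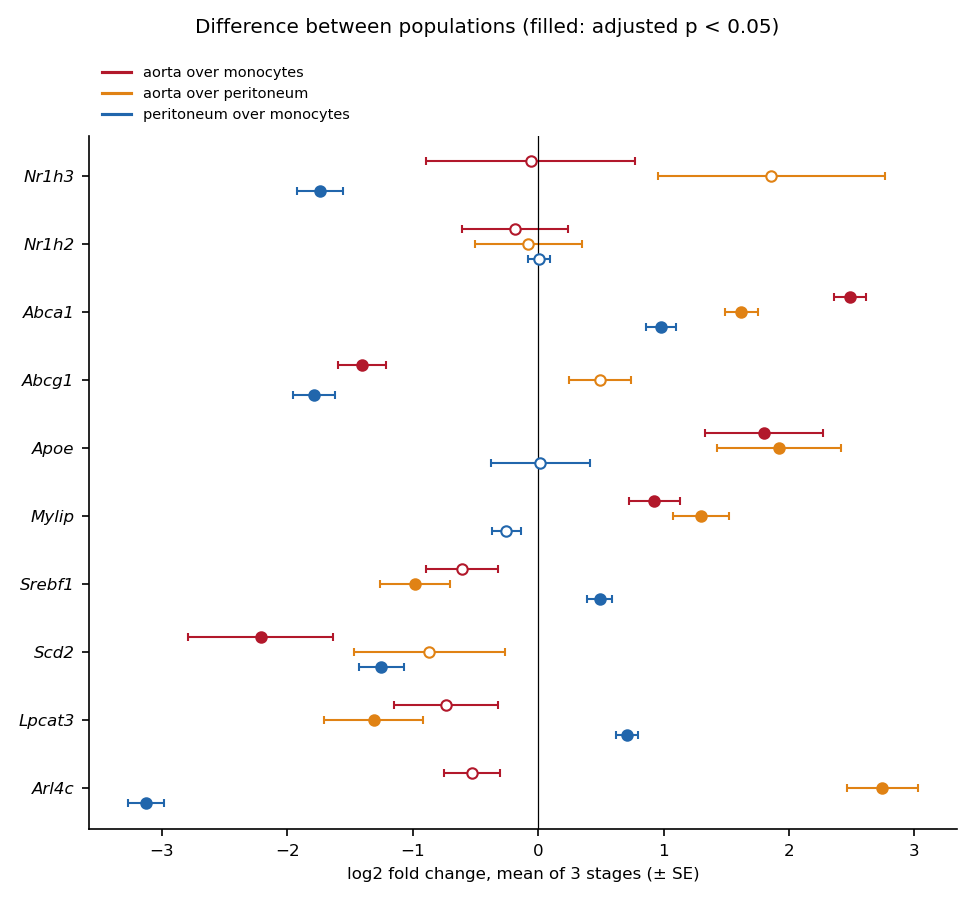
Log2 fold changes (± standard error) between populations, averaged over the 3 stages, for the 10 genes. Filled points have an adjusted p under 0.05. Abca1 is the one gene filled on the right of 0 in all 3 comparisons, at 2.49, 1.62 and 0.98.

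Between populations, 5 of 10 genes passed for aortic macrophages over monocytes (29.7% of all genes), 3 higher and 2 lower. For aortic over peritoneal macrophages 6 of 10 passed (26.8% of all genes), 4 higher and 2 lower. For peritoneal macrophages over monocytes 7 of 10 passed, 3 higher and 4 lower, where 67% of all genes passed, so that share is near the background. All 12 libraries of one population lay apart from all 12 of the other for Abca1 in aortic macrophages over monocytes (6.21% of all genes) and over peritoneal macrophages (4.36%). For peritoneal macrophages over monocytes Abcg1 and Arl4c lay apart, 2 of 10 genes beside 18% of all genes, so that share is near the background. The median difference of the 10 genes was -0.355 for aortic macrophages over monocytes, against -0.121 over all genes, 0.895 for aortic over peritoneal macrophages, against 0.01, and -0.124 for peritoneal macrophages over monocytes, against -0.019. Plain CPM scaling moved the median gene by -0.203 for peritoneal macrophages over monocytes and by -0.112 and -0.117 for early and advanced over baseline aortic macrophages, and RLE size factors by -0.105 for aortic over peritoneal macrophages, all relative to the TMM scaling used for the fold changes, and no called direction turned round under RLE.

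Whether a stage change differed between populations was tested by interaction terms. Lpcat3 changed differently at the early stage over baseline in aortic macrophages than in monocytes (difference of changes -4.16 ± 1.05, adjusted p = 0.0333) and than in peritoneal macrophages (-3.84 ± 0.98, adjusted p = 0.0281). Abcg1 had a larger change in aortic macrophages than in monocytes for advanced over baseline (1.74 ± 0.46, adjusted p = 0.0387). These were 1 of 10 genes each, where 2.64%, 3.33% and 2.8% of all genes passed. The other 6 interaction tests called 0 of 10. They were aortic macrophages minus monocytes for advanced over early (0.0654% of all genes), aortic minus peritoneal macrophages for advanced over early (0.234%) and advanced over baseline (3.03%), and peritoneal macrophages minus monocytes for early over baseline (2.78%), advanced over early (1.25%) and advanced over baseline (2.3%). In that order edgeR had 0, 4, 1, 3, 2 and 3 genes at an unadjusted p under 0.05, DESeq2 called 0, 0, 0, 1, 0 and 0, and limma-voom none. All 3 calls were lost with limma-voom weights for each population, and both calls against monocytes were also lost with the replicate number as a block. The Lpcat3 call against monocytes was lost without any 1 of the 8 monocyte libraries (adjusted p up to 0.0749), and that against peritoneal macrophages without baseline library 1, 2, 3 or 4 or early library 2 of the peritoneum (up to 0.0621) or without the libraries that stood apart. The Abcg1 call was lost without aortic advanced library 3 or 4 or any of the 8 monocyte libraries (up to 0.117).

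**Figure D5:**
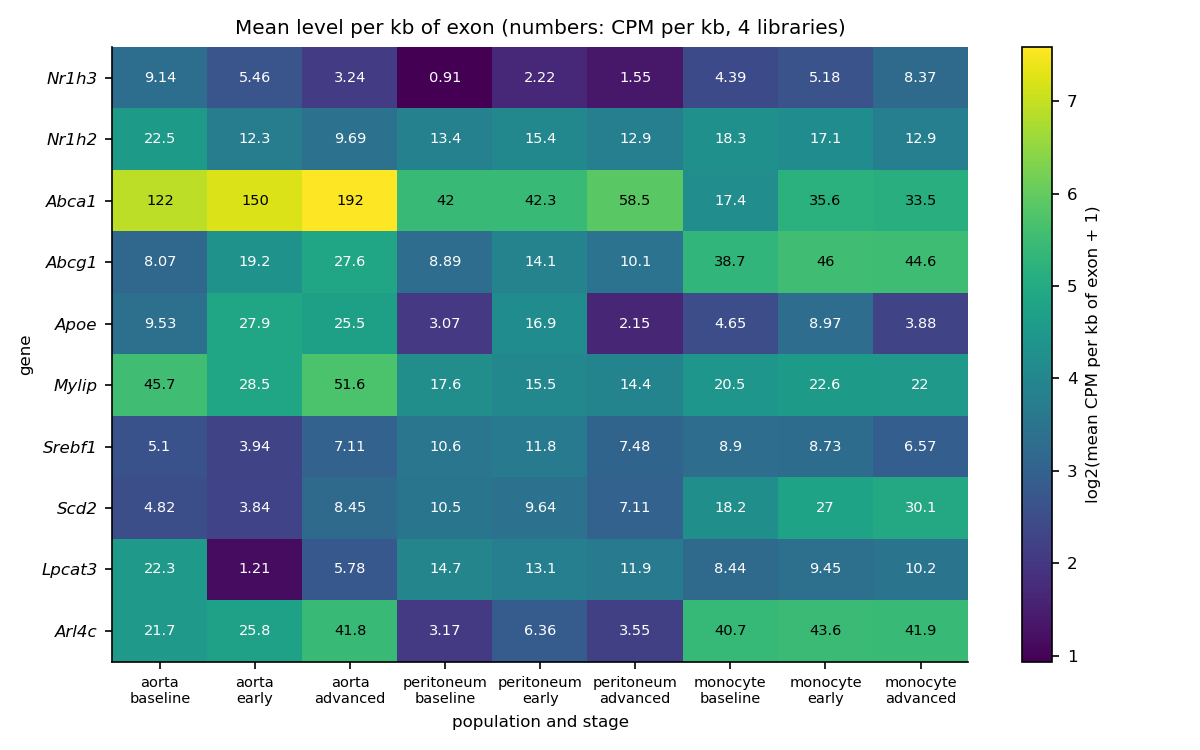
Mean level of each of the 10 genes in the 9 groups, in counts-per-million per kilobase of exon, as numbers, with colour for log2(value + 1). Abca1 in aortic macrophages is highest, from 122 at baseline to 192 at the advanced stage, and Nr1h3 in baseline peritoneal macrophages is lowest, at 0.91.

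Per kilobase of exon, which allows levels to be compared between genes, Abca1 had the highest mean of the 10 genes in every aortic and peritoneal group. It had 191.5 ± 21.65 CPM per kilobase in advanced aortic macrophages, 150.3 ± 34.77 at the early stage and 121.6 ± 14.58 at baseline (SD, n = 4). In baseline monocytes the highest means were those of Arl4c and Abcg1, with Abcg1 at 38.72 ± 1.839 and Abca1 at 17.37 ± 1.941 CPM per kilobase (SD, n = 4).

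Genes that work with the receptors were described from lists. Of 18 partners and coregulators, 17 were tested in monocytes, and at the early stage 0 were higher and 7 lower than at baseline, where 10.8% of all genes passed (543 higher and 480 lower of 9465), with a median of -0.336 against 0 over all genes. At the advanced stage 0 were higher and 9 lower than at baseline, where 19% of all genes passed (875 higher and 923 lower), with a median of -0.417 against -0.015. The coactivator genes Ncoa6 (-0.55 ± 0.09, adjusted p = 0.00222) and Ep300 (-0.50 ± 0.10, adjusted p = 0.0047) fell at the early stage over baseline. Crebbp fell by 0.62 ± 0.09 (adjusted p = 0.000714) and Ncoa1 by 0.58 ± 0.10 (adjusted p = 0.00101) at the advanced stage over baseline. Neutrophil markers and depth moved with these comparisons as given above, and their part was not tested. Thinned to equal depth, these 4 genes stayed called, and the fit of all 36 libraries called none of them.

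Among 21 other receptor targets, 14 were tested in monocytes, with 2 higher and 1 lower in each of the early and the advanced stage over baseline, beside 10.8% and 19% of all genes in either direction, so that the advanced count is near the background. Scd1, a desaturase gene like Scd2, had 25.82 to 85.64 CPM in early monocytes, against 5.149 to 23.29 CPM in baseline monocytes, and rose by 2.33 ± 0.41 (adjusted p = 0.00279). In aortic macrophages 15 were tested. Lpl, which encodes lipoprotein lipase, had 166.3 to 385.7 CPM at the early stage, against 719.3 to 1316 CPM at baseline, and fell by 1.73 ± 0.32 (adjusted p = 0.0166), the 1 call there. That call was lost without baseline library 1, early library 3 or early library 4 (adjusted p up to 0.0653). Cd38, which encodes an NAD-consuming ectoenzyme, had 247.8 to 312 CPM at the advanced stage, against 76.91 to 162.6 CPM at baseline, and rose by 1.44 ± 0.33 (adjusted p = 0.044). It lost its call in 6 of the 8 fits that left out 1 aortic library, all but those without baseline library 1 or 4 (adjusted p up to 0.21).

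Between populations the same list split by gene. For peritoneal macrophages over monocytes 12 of 17 tested were higher and 2 lower (median 1.837, against -0.019 over all genes, of which 67% passed, 3359 higher and 3574 lower of 10343). For aortic macrophages over monocytes 5 of 15 were higher and 3 lower (median 0.315, against -0.121 over all genes, of which 29.7% passed). For aortic over peritoneal macrophages 2 of 17 were higher and 10 lower (median -0.583, against 0.01 over all genes, of which 26.8% passed). Mertk, a receptor for the uptake of dying cells, had 131.1 to 324.3 CPM in aortic macrophages, 112.7 to 222.5 CPM in peritoneal macrophages and 0.4858 to 16.06 CPM in monocytes. Pltp, the phospholipid transfer protein gene, had 109.5 to 839.4 CPM in aortic macrophages, 385.2 to 1044 CPM in peritoneal macrophages and 32.06 to 81.11 CPM in monocytes. Neither was called between the macrophage populations, with 0.22 ± 0.15 for Mertk (adjusted p = 0.332) and -0.46 ± 0.19 for Pltp (adjusted p = 0.0767) for aortic over peritoneal macrophages. Acaca, which encodes acetyl-CoA carboxylase, had 6.251 to 199.4 CPM in aortic macrophages, 229.5 to 649.4 CPM in peritoneal macrophages and 35.59 to 66.13 CPM in monocytes. Apoc1, an apolipoprotein gene next to Apoe, had 0 to 58.72 CPM in aortic macrophages, 59.69 to 216.2 CPM in peritoneal macrophages and 0.4739 to 3.307 CPM in monocytes. The peritoneal libraries lay above all others for both, where 18% of all genes lay apart against monocytes and 4.36% against aortic macrophages. For Apoc1 the margin over the highest aortic library was narrow (59.69 against 58.72 CPM).

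Of 17 tested cholesterol synthesis genes under SREBP2, 12 had higher levels in peritoneal macrophages over monocytes and 0 lower, with a median difference of 1.214 against -0.019 over all genes. In either direction 67% of all genes passed in that comparison (3359 higher and 3574 lower of 10343). The share called is near that background, while the calls of the list were all higher. Insig1, which holds SREBP in the endoplasmic reticulum, was higher by 1.54 ± 0.13 (adjusted p = 1.71e-10) and Lss, lanosterol synthase, by 3.37 ± 0.29 (adjusted p = 2.51e-10). Of the 13 tested in monocytes, 0 were higher and 2 lower at the advanced stage over baseline, again near the background of 19%. Srebf2 had 40.67 to 55.59 CPM in advanced monocytes, against 73.26 to 127.6 CPM in baseline monocytes, and fell by 1.12 ± 0.15 (adjusted p = 0.00038).

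Of the genes for sterol ligands, cholesterol storage and other efflux routes, 7 of 12 were tested in monocytes, and 0 were higher and 3 lower at the advanced stage over baseline, where 19% of all genes passed. Abca7, an ABC transporter gene, had 121.8 to 177.2 CPM in advanced monocytes, against 286.2 to 292.5 CPM in baseline monocytes, and fell by 0.84 ± 0.11 (adjusted p = 0.000289). Cyp27a1, which encodes the sterol 27-hydroxylase that makes a receptor ligand, was higher in aortic than in peritoneal macrophages by 1.81 ± 0.28 (adjusted p = 9.53e-06) and fell by 0.68 ± 0.17 in advanced over baseline monocytes (adjusted p = 0.0111). The fit of all 36 libraries called none of the monocyte stage changes of Scd1, Srebf2, Abca7 and Cyp27a1. Ch25h, the cholesterol 25-hydroxylase gene, had counts in 8 of 12 aortic libraries, up to 38.51 CPM, in 1 of 12 peritoneal libraries and in 1 of 12 monocyte libraries. Soat1, which esterifies cholesterol for storage, had 4.501 to 255.5 CPM in aortic macrophages, 163.4 to 321.5 CPM in peritoneal macrophages and 285.8 to 635.4 CPM in monocytes. Pparg, which encodes a nuclear receptor that senses fatty acids, had 1.929 to 75.58 CPM in aortic macrophages, 0 to 8.209 CPM in peritoneal macrophages and 8.786 to 32.9 CPM in monocytes.

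Over the 36 libraries and 10563 genes, those with levels most like Abca1 by Spearman's rank correlation were Cd86 (0.911), Cd63 (0.907), Lgmn (0.907), Impact (0.904) and Sepp1 (0.903). All 5 had their highest mean in aortic macrophages. The genes most like Abcg1 were Glipr1 (0.868), Cd47 (0.867), Actr3 (0.863), Gpr141 (0.86) and Treml2 (0.859), with their highest mean in monocytes. These are descriptions over libraries that share population, stage and depth.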

How the data were processed

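Cells were sorted by flow cytometry into RLT buffer, RNA was purified on RNeasy micro columns, and, per the labels' protocols, Ovation SoLo libraries were read as pairs on a NextSeq500. The deposited values are whole-number read counts per gene, made by the authors with STAR and featureCounts on mm10, per the submitters' processing notes. Versions and the strand setting are not given in the sources used here, so reads of overlapping and antisense genes cannot be told apart. Rn45s held 4.74 to 19.8% of the counts and stayed in the totals.

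The 10 genes and the gene lists were chosen with earlier results of these data known. Groups came from the sample titles. Differences were tested, two-sided, with edgeR 4.0.16 (quasi-likelihood, under R 4.3.3) with TMM scaling, genes kept by filterByExpr and Benjamini-Hochberg adjustment over all genes. Stages were fitted within the 12 libraries of a population, and populations and interactions within the 24 libraries of a pair, which share 1 spread (biological coefficient of variation 78.6% for aorta and monocytes, 78.7% for aorta and peritoneum, 21% for peritoneum and monocytes). Standard errors were derived from the fold change and its F statistic. CPM are counts-per-million of the library total. From each list, up to 3 genes with the smallest p among those called in a comparison could be named, and some of the genes so chosen are not reported here. Each result was also computed with limma-voom (3.58.1) and weights, with DESeq2 (1.42.0), with RLE scaling, unfiltered, with a replicate block, on thinned counts, over all 36 libraries in 1 fit, without Rn45s, and with libraries left out. The scripts were tested on simulated data. Counts carry no molecular identifiers, so read depth does not show how many molecules were sampled. Aortic baseline libraries had counts for 10163, 10102, 7790 and 7565 genes at 5.28 to 9.74 M counts. Aortic advanced ones had 9216, 12663, 13293 and 12808 genes at 1.07 to 2.47 M. Thinning evens out reads and not molecules, and the part of this difference in comparisons with baseline was not tested. Gene coordinates are RefSeq (GRCm38.p6), and exon lengths are from GENCODE M21 (GRCm38). Within a population, same-numbered replicates of different stages did not deviate together (correlations of -0.33 to 0.187 over 36 pairs, 1 above 0.1). Same-numbered libraries of different populations at the same stage were not compared, so a shared mouse there was not checked. The main fits did not use the numbers for pairing and treat the libraries as independent.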

Additional observations from a re-analysis of the deposited data

Results flagged for a closer look

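Of 90 groups of 4 libraries (10 genes in 9 groups), 7 had 1 library far from the other 3 by Dixon's criterion, where chance gives about 1 in 20 groups. In aortic macrophages these were Abca1 in early library 2 (1022 CPM, nearest 1683 CPM), Nr1h2 in early library 2 (125.8 CPM, nearest 22.87 CPM) and Nr1h3 in baseline library 4 (91.95 CPM, the other 3 at 0). In peritoneal macrophages they were Abcg1 in baseline library 1 (82.3 CPM, nearest 60.92 CPM) and Apoe in early library 1 (107.8 CPM, nearest 19.54 CPM). In monocytes they were Apoe in early library 1 (42.82 CPM, nearest 13.22 CPM) and Apoe in advanced library 1 (2.647 CPM, nearest 9.545 CPM).

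The stage change differed between populations for Lpcat3 at the early stage over baseline, by -4.159 on the log2 scale for aortic macrophages minus monocytes and by -3.842 for aortic minus peritoneal macrophages. It also differed for Abcg1 at the advanced stage over baseline, by 1.741 for aortic macrophages minus monocytes. These 3 calls did not hold under every alternative. Limma-voom made none of them, and the calls for both differences against monocytes were lost without any 1 of the 8 monocyte libraries in the comparison.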

How the results depend on the processing

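No called direction reversed under any alternative run. Counts of called genes moved as follows, beside the value in the report. For aortic macrophages, early over baseline (0) became 1 with DESeq2 and 2 in the fit of all 36 libraries, and advanced over early (0) became 1 in that fit. Advanced over baseline (0) became 2 without a filter, 1 with DESeq2, 2 with limma-voom, 1 with thinned counts, 3 in the fit of all 36 libraries, 2 without the libraries that stood apart, and 0 to 1 with 1 library left out. For monocytes, early over baseline (1) ran from 1 to 2 with 1 library left out, and advanced over baseline (4) became 1 in the fit of all 36 libraries. For peritoneal macrophages, early over baseline (0) became 2 without a filter, 3 with DESeq2 and 0 to 3 with 1 library left out. Advanced over early (0) became 1 without a filter, 1 with DESeq2 and 0 to 2 with 1 library left out, and advanced over baseline (0) became 1 with limma-voom and 1 without the libraries that stood apart. Peritoneal macrophages over monocytes (7) became 3 in the fit of all 36 libraries. For aortic macrophages minus monocytes, early over baseline (1) became 0 with limma-voom, 0 with the replicate block, 2 without the libraries that stood apart and 0 to 2 with 1 library left out, and advanced over baseline (1) became 0, 0, 3 and 0 to 3 under the same 4. For aortic minus peritoneal macrophages, early over baseline (1) became 0 with limma-voom and 0 to 2 with 1 library left out, and advanced over baseline (0) became 1 in the fit of all 36 libraries, 2 without the libraries that stood apart and 0 to 1 with 1 library left out. For peritoneal macrophages minus monocytes, early over baseline (0) became 1 with DESeq2 and 0 to 2 with 1 library left out. The cause was not tested. Of the libraries left out singly, aortic baseline 4 gave the highest count in each aortic comparison named (1, 2, 3, 2 and 1, the last also without peritoneal advanced 1) and monocyte baseline 4 gave the 2 in monocytes. In the peritoneum, leaving out early 3 gave 3 and early 4 gave 2 for early over baseline, and early 1, 3 and 4 gave 1, 1 and 2 for advanced over early. For peritoneal macrophages minus monocytes, early 3 gave 2, and early 4 and baseline 4 gave 1 each.

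The replicate numbers did not pair the stages within a population, and pairing between populations was not checked. The replicate block moved no other count of the 10 genes by over 1.5 times. Counts were low for Lpcat3 in early aortic macrophages (0 to 20 per library) and for Nr1h3 in peritoneal macrophages, and the part of depth was not tested. Without the libraries that stood apart, calls over baseline in aortic stage and interaction tests rest on 2 aortic baseline libraries, where Nr1h3 is listed at 0.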
